A study of Mus musculus with 10 samples.

Results

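The genes of mitochondrial and peroxisomal fatty acid oxidation were examined in brown adipose tissue, a fat tissue that burns fuel to make heat. The set holds 33 genes of the 32889 in the expression table, found by gene symbol, with each symbol matching 1 row. Of these, 20 code for mitochondrial proteins, 11 for peroxisomal proteins and 2 (Eci2 and Crat) for proteins of both organelles. The 10 libraries came from wild-type C57BL/6J mice and fall into 3 groups: obesity-prone and obesity-resistant mice, both fed a high-fat diet (n = 3 each), and control mice on regular chow (n = 4). The labels call the high-fat diet groups HFDhigh and HFDlow and the control group ND. The age and sex of the mice, the length of the diet and the rule that divided prone from resistant mice are not given in the sources used here, and nothing says whether a library is 1 animal, so p-values measure only the spread between these samples, which may be technical.

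Fatty acids are oxidised in both organelles. In mitochondria, long-chain acyl-CoA crosses the membranes by the carnitine shuttle and is then shortened in repeated cycles of dehydrogenation, hydration, another dehydrogenation and thiolysis, with electrons passed from the acyl-CoA dehydrogenases to the electron transfer flavoprotein. Peroxisomes shorten very long-chain and branched fatty acids with their own enzymes and hand the products on to mitochondria. In brown adipocytes fatty acid oxidation supplies the electrons for uncoupled respiration through Ucp1.

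Total counts lay between 35583997 and 37327770 per library, and all 33 genes had counts in every library and passed the filter on low counts. Levels are given as CPM, counts scaled to a common total after adjustment of the library sizes, for comparisons between libraries, and as FPKM, the authors' value scaled by transcript length and library total, for comparisons between genes. Ucp1, which marks brown fat, stood at 2882 to 8461 CPM in obesity-prone libraries, 8653 to 9753 CPM in obesity-resistant libraries and 6240 to 10270 CPM in control libraries. Summed skeletal muscle markers (12 genes) ranged widely inside each group, from 24.5 to 79.0 CPM in obesity-prone, 26.03 to 627.2 CPM in obesity-resistant and 26.5 to 736.7 CPM in control libraries. A gene is said to have risen or fallen when its adjusted p in edgeR's quasi-likelihood test, over all 19676 genes tested, was below 0.05.

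The promoters of the genes on which the results turn are shown because the calls and the within-library ratios below concern these genes. RefSeq promoter windows on GRCm38.p6, from 250 bases before to 50 bases after an annotated start, matched 27 of the 33 genes with 31 windows. Hadha and Hadhb, which code for the alpha and beta subunits of the mitochondrial trifunctional protein, start 273 bases apart on opposite strands of chromosome 5, so that their windows share 228 bases (chr5:30155003-30155230). In the Hadhb window (plus strand, chr5:30155003-30155302) capitals mark the bases that also lie in the Hadha window.
Hadhb: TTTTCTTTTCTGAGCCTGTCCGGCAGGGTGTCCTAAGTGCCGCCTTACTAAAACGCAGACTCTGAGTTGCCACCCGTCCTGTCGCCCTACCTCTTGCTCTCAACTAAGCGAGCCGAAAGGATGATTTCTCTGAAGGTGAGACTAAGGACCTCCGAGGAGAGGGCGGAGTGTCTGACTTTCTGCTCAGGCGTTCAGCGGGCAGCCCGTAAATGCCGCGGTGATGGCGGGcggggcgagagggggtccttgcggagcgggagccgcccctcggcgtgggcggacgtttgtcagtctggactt
The window of Cpt1a, the liver isoform of carnitine palmitoyltransferase 1 (plus strand, chr19:3323051-3323350), lies inside the annotated gene, which begins at 3322326. Capitals in it mark a match to AGGTCA, the hexamer bound by nuclear receptors such as PPARs, on the opposite strand.
Cpt1a: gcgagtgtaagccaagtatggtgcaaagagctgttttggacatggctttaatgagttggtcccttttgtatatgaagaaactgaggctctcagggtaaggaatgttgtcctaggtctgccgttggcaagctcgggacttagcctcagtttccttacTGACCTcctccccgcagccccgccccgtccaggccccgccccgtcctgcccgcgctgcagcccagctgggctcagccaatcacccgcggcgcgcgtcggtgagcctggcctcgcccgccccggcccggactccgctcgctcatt
The windows of Etfb (plus strand, chr7:43443822-43444121) and Acaa1a (plus strand, chr9:119341044-119341343), the genes that fell in obesity-prone libraries, hold none of the 3 motifs searched and so carry no capitals. The Acaa1a window also lies inside its annotated gene, which begins at 119341028.
Etfb: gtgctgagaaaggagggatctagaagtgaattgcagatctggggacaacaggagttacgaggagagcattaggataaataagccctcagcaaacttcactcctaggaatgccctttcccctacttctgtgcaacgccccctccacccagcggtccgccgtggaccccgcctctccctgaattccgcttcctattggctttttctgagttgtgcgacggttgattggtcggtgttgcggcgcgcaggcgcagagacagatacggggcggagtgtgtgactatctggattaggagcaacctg
Acaa1a: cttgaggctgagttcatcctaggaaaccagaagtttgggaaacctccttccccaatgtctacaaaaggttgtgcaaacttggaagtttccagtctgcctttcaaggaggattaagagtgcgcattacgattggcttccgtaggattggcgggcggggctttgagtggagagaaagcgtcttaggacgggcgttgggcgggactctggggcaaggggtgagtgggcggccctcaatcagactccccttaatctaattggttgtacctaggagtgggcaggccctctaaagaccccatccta
Searched on both strands, AGGTCA was found in 4 of the 31 windows (Acadm, Acadvl, Cpt1a and Echs1), against 16.3% of all 32851 promoters in the RefSeq table. A direct repeat of this hexamer with 1 base between the copies, the PPAR response element, was found in 0 of the 31 windows, against 0.04% of all promoters. TNAAGGTCA, the extended site of estrogen-related receptors, was found in 0 of 31, against 1.28%; both longer motifs contain the hexamer. These matches describe letters in the windows shown.

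Per length, the mitochondrial genes were the abundant members of the set. Acsl1, which activates long-chain fatty acids to acyl-CoA, averaged 894.9 ± 103.9 FPKM in obesity-prone, 889.4 ± 73.2 in obesity-resistant and 999.9 ± 39.6 in control libraries (SD, n = 3, 3 and 4, here and below). Hadhb averaged 897.1 ± 366.4 FPKM in obesity-prone, 994.5 ± 100.4 in obesity-resistant and 738.7 ± 42.6 in control libraries, which made it the most abundant member in both high-fat diet groups and the second after Acsl1 in control libraries. The SD of Hadhb and Acsl1 overlapped within each high-fat diet group. Within single libraries, Hadhb lay above Acsl1 in all 3 obesity-resistant libraries and in obesity-prone libraries 1 and 2. In obesity-prone library 3 it lay below Acsl1 (474.4 against 775.5 FPKM). The order of these genes was not tested. Acaa2, Acadl, Acadm and Cpt1b, which code for the mitochondrial thiolase, the long-chain and medium-chain acyl-CoA dehydrogenases and the muscle isoform of carnitine palmitoyltransferase 1, had group means between 440.0 and 658.4 FPKM. The lowest mitochondrial members were Acsl5, another acyl-CoA synthetase, with group means of 20.2 to 23.95 FPKM, and Cpt1a, with 8.79 to 19.4 FPKM.

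The most abundant peroxisomal members were Hsd17b4 (the D-bifunctional protein), Abcd3 (a transporter of the peroxisomal membrane) and Ehhadh (the L-bifunctional protein), with group means between 63.3 and 92.7 FPKM. Acaa1b, a peroxisomal thiolase, was the least abundant peroxisomal member, with group means from 6.83 to 10.8 FPKM. Summed over members, peroxisomal genes reached 422.0, 380.2 and 279.2 FPKM in obesity-prone libraries, 313.4, 421.4 and 431.8 FPKM in obesity-resistant libraries, and 398.1, 405.1, 408.4 and 380.9 FPKM in control libraries. The mitochondrial sums were 8085, 7981 and 4339 FPKM in obesity-prone libraries, 7099, 8075 and 8098 FPKM in obesity-resistant libraries, and 7485, 7613, 7869 and 7446 FPKM in control libraries. Obesity-prone library 3 had the lowest sum of both kinds. The mitochondrial sums of obesity-prone libraries 1 and 2 lay above all 4 control sums, and those of obesity-resistant libraries spanned both. In summed CPM, obesity-prone libraries 1 and 2 (17490 and 18180) lay within the control range (16410 to 18440). The peroxisomal FPKM sums of the other 9 libraries overlapped between the groups. Part of the length of some transcripts is shared with other genes, so the authors' counting could split their reads: in GENCODE transcripts of GRCm38, 80.4% of the 50-base words of Cpt1b also lie in the overlapping locus Gm44502, 57.7% of those of Etfb in Gm45233, 56.6% of those of Hadhb in Gm13910, 24.55% of those of Acot2 in Acot1, and 26.7% of those of Acaa1a in Acaa1b. The levels of these 5 genes, and of Acaa1b, which shares 35.55% of its words with Acaa1a, are uncertain to that extent.

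**Figure D1:**
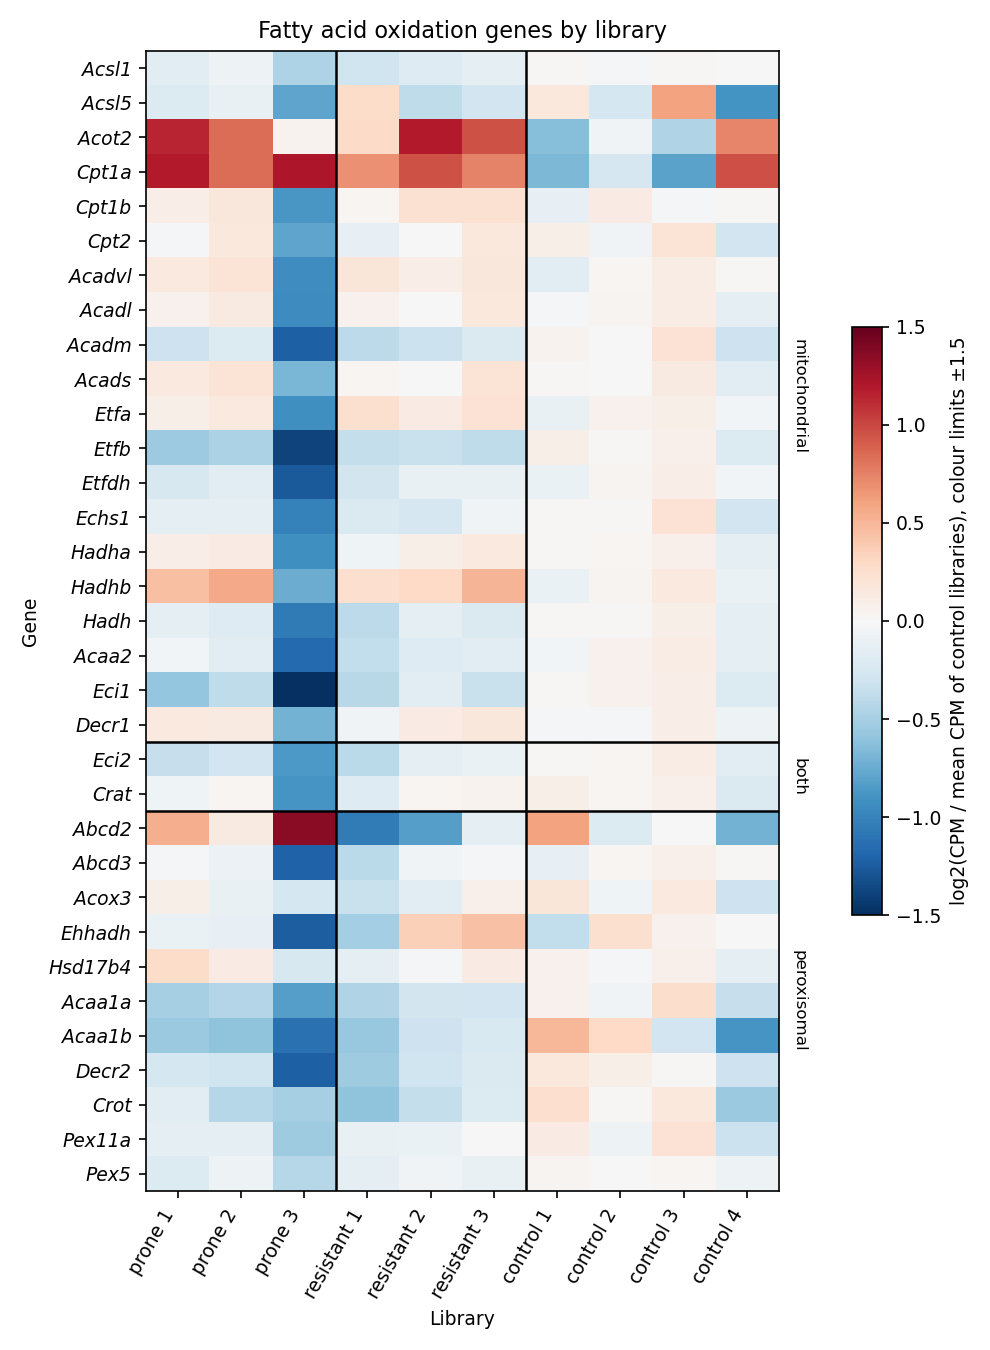
Level of each of the 33 genes (rows, by organelle) in each of the 10 libraries (columns) as the log2 of its CPM over the mean CPM of the 4 control libraries, with colours limited to ±1.5. Obesity-prone library 3 is the lowest of the 10 libraries for 17 of the 20 mitochondrial genes, while Cpt1a is red in all 6 high-fat diet libraries and in control library 4.

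Obesity-prone library 3 stood apart from all others and is therefore described before the comparisons. It held the lowest CPM of the 10 libraries for 17 of 20 mitochondrial, 8 of 11 peroxisomal and both shared members. Its mitochondrial members stood at 41.9% to 114.3% of the mean of obesity-prone libraries 1 and 2, with a median of 51.7%. Its peroxisomal members stood at 44.9% to 199.6% of that mean, with a median of 75.8%. Against this run, Cpt1a (84.8 CPM) and Abcd2 (193.4 CPM), a transporter of very long-chain acyl-CoA into peroxisomes, had their highest value of the 10 libraries there.

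Marker genes of other cell types moved in the same library. The 8 brown adipocyte markers summed to 3633 CPM in obesity-prone library 3, against 7991 to 11980 CPM in the other 9 libraries. Ucp1 alone gave 2882 CPM of that sum. Lhx8 had its highest value of all libraries there (7.42 CPM), and Zic1 (9.16 CPM) lay within the range of the others. The remaining brown adipocyte markers were at their lowest there. The 8 macrophage markers summed to 406.4 CPM there, against 100.3 to 280.3 CPM in the others, and none of them was at 0 in any library. The 7 white adipocyte-selective markers found in the table, with 1 gene at 0 in 8 of the other 9 libraries, summed to 1023 CPM, against 284.6 to 584.2 CPM. Of these, Lep, Nnat and Slc7a10 were at their highest there and Fam13a at its lowest (166.5 CPM). Retn, Agt and Hoxc10 lay within the range of the others. The 6 erythrocyte markers summed to 22160 CPM, against 707.0 to 6150 CPM. The highest erythrocyte sum among the other 9 belonged to control library 4, which also differed from the other controls in several members named below. The part of these cell types in the results was not tested, and in bulk tissue fewer cells of a type and less RNA per cell cannot be told apart.

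**Figure D2:**
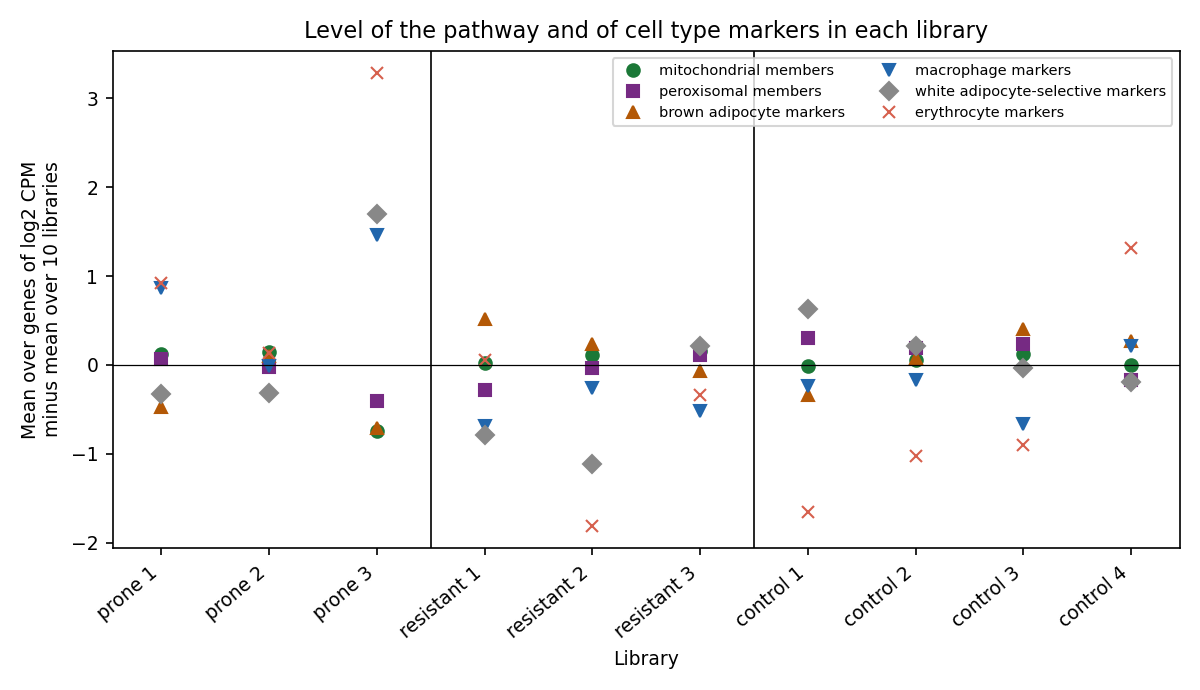
Score of each gene list in each library (x axis), the mean over genes of log2 CPM minus the gene's mean over the 10 libraries (y axis); each point is 1 library and list. Mitochondrial members scored -0.74 in obesity-prone library 3 and between -0.01 and 0.15 in the other 9 libraries, and the macrophage, white adipocyte and erythrocyte markers had their highest scores in that library.

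Obesity-prone libraries were first set against control libraries, which asks what differs in brown fat of mice prone to obesity under the high-fat diet. In mitochondria Etfb, the beta subunit of the electron transfer flavoprotein, fell, and in peroxisomes the thiolase Acaa1a fell; no member rose. These were 2 of 33 members, against 1377 of 19676 genes tested (7%) over the whole table, of which 730 (3.71%) were higher and 647 (3.29%) lower. The fold change lay below 0 for 28 of the 33 members, with a median log2 fold change of -0.25, against 0.0047 over all genes tested. Without obesity-prone library 3 the median was 0.09 over mitochondrial and -0.14 over peroxisomal members. An unadjusted p under 0.05 was found for 9 members, against 5537 of all genes (28.1%). The groups did not overlap for 8 members, all lower in obesity-prone libraries (Acsl1, Etfb, Etfdh, Hadh, Eci1, Eci2, Acaa1a and Pex5), against 20.3% of genes without overlap over the table, 9.66% higher and 10.6% lower.

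Markers of other cell types differed between the same groups. The 8 macrophage markers all had fold changes above 0, with a median log2 fold change of 1.13 and 2 of them called higher, although no marker separated the groups. The 6 erythrocyte markers were also all above 0 (median 2.04, 0 called), and the 12 skeletal muscle markers all below 0 (median -3.25, 0 called). Of the 8 brown adipocyte markers, 6 were below 0 (median -0.53, 0 called). The 6 general adipocyte markers were all below 0 (median -0.44, 1 called lower). Of the 6 white adipocyte-selective markers tested, 3 were above and 3 below 0 (median 0.31, 1 called higher). Of the 6 endothelial markers, 5 were above 0 (median 0.28, 0 called). Their part in the members' values was not tested, apart from the fit with a muscle covariate given below.

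Etfb (gene 110826, chromosome 7, 43444072 to 43457800 on GRCm38.p6) had 256.4, 267.7 and 142.8 CPM in obesity-prone libraries, against 395.3, 377.4, 394.0 and 323.8 CPM in control libraries. All 3 obesity-prone values lay below all 4 control values, and library 3 was far below the other 2. The log2 fold change was -0.75 ± 0.19 (SE, edgeR, adjusted p = 0.0467). The call was close to the threshold: without obesity-prone library 1, without any single obesity-resistant library or without control library 1, 2 or 3, the adjusted p lay between 0.0698 and 0.122, and without obesity-prone library 3 the fold change was -0.51 (edgeR, adjusted p = 0.037). It also ended with only these groups in the fit (edgeR, adjusted p = 0.114), with the skeletal muscle score of each library as a covariate (edgeR, log2 fold change -0.76, adjusted p = 0.0771) and in all 4 limma fits on log2 FPKM (adjusted p from 0.059 to 0.102).

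The electron transfer flavoprotein is a dimer, and its alpha subunit moved less. Etfa had 496.7, 514.8 and 247.0 CPM in obesity-prone libraries and 432.6, 486.6, 494.8 and 451.8 CPM in control libraries, with overlapping groups. Etfdh, the oxidoreductase that passes the electrons to ubiquinone, had 679.2, 715.7 and 335.9 CPM in obesity-prone libraries, against 748.3, 825.1, 856.4 and 777.7 CPM in control libraries. The groups of Etfdh did not overlap, and it was not called.

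Eci1, an isomerase needed for unsaturated fatty acids, had the next lowest p among mitochondrial members. It had 230.5, 263.4 and 115.7 CPM in obesity-prone libraries, against 347.6, 359.7, 367.2 and 298.8 CPM in control libraries. No obesity-prone value reached the lowest control value, and the log2 fold change of -0.76 ± 0.23 missed the threshold (SE, edgeR, adjusted p = 0.072). Eci2, its partner in both organelles, had 80.2, 83.6 and 56.0 CPM in obesity-prone libraries and 102.6, 104.0, 109.9 and 90.2 CPM in control libraries, again without overlap, at a log2 fold change of -0.47 ± 0.14 (SE, edgeR, adjusted p = 0.0695). Decr1, the mitochondrial dienoyl-CoA reductase, overlapped between the groups.

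Cpt1a (gene 12894, chromosome 19, 3322326 to 3385735) had 83.5, 65.0 and 84.8 CPM in obesity-prone libraries, against 22.8, 30.6, 21.0 and 71.5 CPM in control libraries. Control libraries 1 to 3 lay well below every high-fat diet library, while control library 4 lay among them, so that the groups overlapped. The log2 fold change was 1.09 ± 0.37 (SE, edgeR, adjusted p = 0.0916); without control library 4 it was 1.65 (edgeR, adjusted p = 0.00142). Cpt1b had 1449, 1514 and 738.5 CPM in obesity-prone libraries, against 1240, 1467, 1323 and 1370 CPM in control libraries. Its log2 fold change was -0.13 ± 0.22 (SE, edgeR, adjusted p = 0.738) and changed sign, to 0.13, without obesity-prone library 3.

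Acot2 and Hadhb had fold changes above 0 that were not called. Acot2, a thioesterase that frees fatty acids from CoA in the matrix, had 351.0, 285.4 and 165.9 CPM in obesity-prone libraries and 102.0, 154.1, 116.5 and 265.1 CPM in control libraries, with control library 4 inside the obesity-prone range (log2 fold change 0.75 ± 0.36, SE, edgeR, adjusted p = 0.202). Hadhb, chosen with Eci2, Etfdh and Decr2 after their values had been seen, had 2159, 2335 and 941.7 CPM in obesity-prone libraries and 1466, 1625, 1744 and 1470 CPM in control libraries. Obesity-prone libraries 1 and 2 lay above, and library 3 below, every control value, and the log2 fold change was 0.20 ± 0.26 (SE, edgeR, adjusted p = 0.653). Among the 20 mitochondrial genes the fold change lay below 0 for 17, with a median log2 fold change of -0.17; without obesity-prone library 3 that median was 0.09. The acyl-CoA dehydrogenases Acadvl, Acadl, Acadm and Acads, which start each cycle at falling chain length, had fold changes from -0.51 to -0.06 on the log2 scale, and their groups overlapped.

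In peroxisomes the fold change lay below 0 for 9 of 11 members, with a median log2 fold change of -0.35. Without obesity-prone library 3 that median was -0.14. Acaa1a (gene 113868, chromosome 9, 119341028 to 119350296), a thiolase that closes the peroxisomal cycle, had 31.3, 32.5 and 24.8 CPM in obesity-prone libraries, against 46.1, 42.6, 52.8 and 34.8 CPM in control libraries. The groups did not overlap, with control library 4 the lowest control, and the log2 fold change was -0.58 ± 0.14 (SE, edgeR, adjusted p = 0.04285). The call was lost, at adjusted p between 0.0642 and 0.112, without obesity-prone library 1 or 3, without any single obesity-resistant library, or without control library 1, 2 or 3 (edgeR, log2 fold change -0.68 to -0.47 over all 10 such fits). It also ended with only these groups in the fit (edgeR, adjusted p = 0.1035), with the muscle covariate (edgeR, log2 fold change -0.55, adjusted p = 0.0741) and in 3 of the 4 limma fits (adjusted p from 0.0499 to 0.0969 over the 4).

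Its near copy Acaa1b had 12.2, 11.8 and 8.21 CPM in obesity-prone libraries, against 25.2, 22.0, 14.6 and 9.69 CPM in control libraries. Control library 4 reached into the obesity-prone range, and the gene was not called (log2 fold change -0.74 ± 0.29, SE, edgeR, adjusted p = 0.134). Pex5, the receptor that imports enzymes into the peroxisome, had 78.3, 85.4 and 67.3 CPM in obesity-prone libraries, against 93.1, 90.2, 92.2 and 85.9 CPM in control libraries. These groups did not overlap, by a small gap, and the log2 fold change was -0.23 ± 0.09 (SE, edgeR, adjusted p = 0.127). Decr2, the peroxisomal dienoyl-CoA reductase, had 40.8, 39.6 and 20.8 CPM in obesity-prone libraries and 54.6, 52.0, 49.3 and 39.2 CPM in control libraries, overlapping only through control library 4 (log2 fold change -0.53 ± 0.21, SE, edgeR, adjusted p = 0.139). Acox3, an oxidase of branched chains, Hsd17b4 and Pex11a, which acts in peroxisome division, overlapped between the groups.

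**Figure D3:**
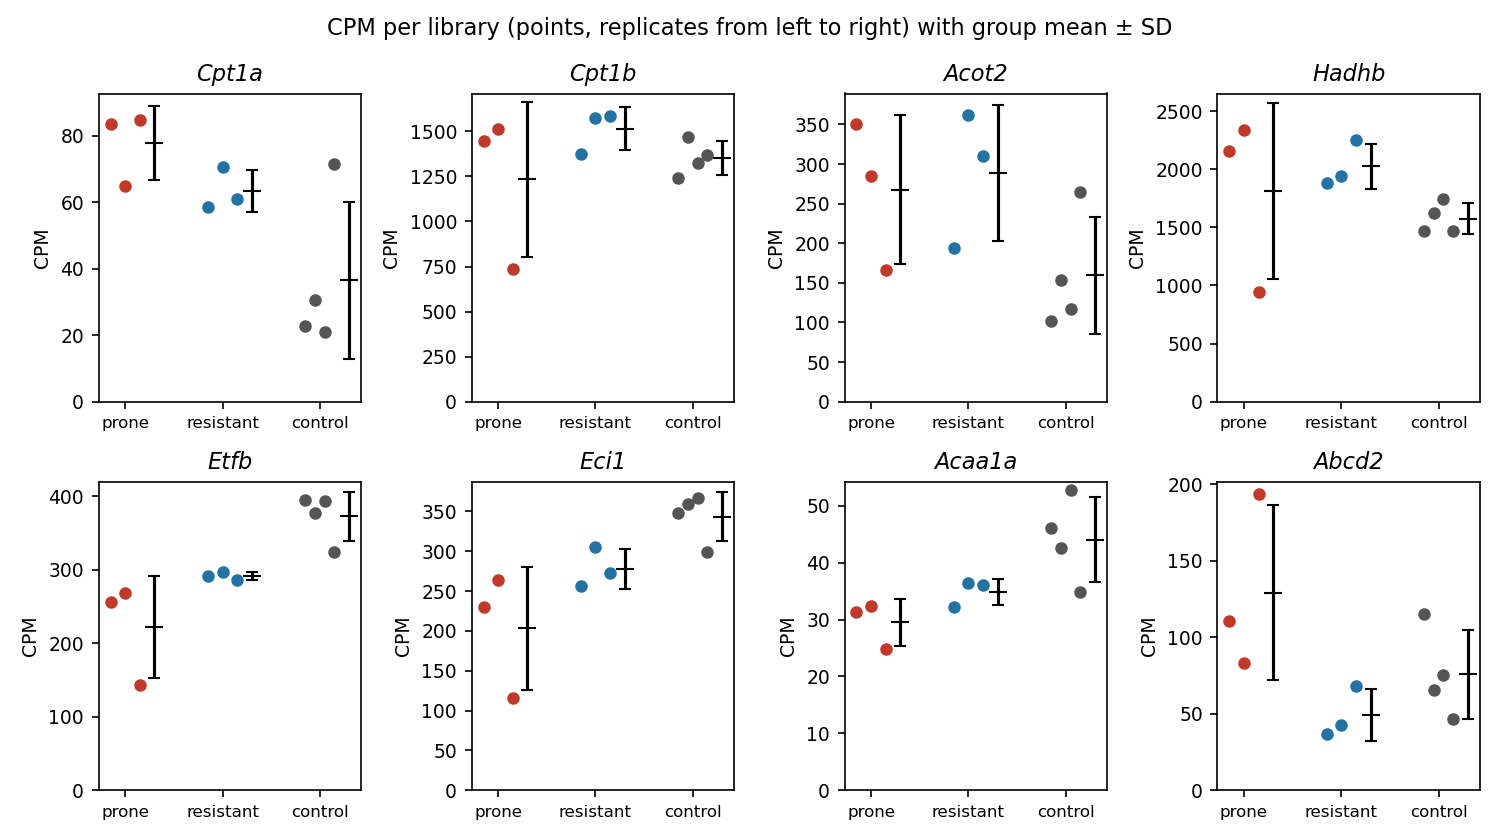
CPM (y axis) of 8 genes in each library (points, replicates from left to right) with the group mean and SD (n = 3, 3 and 4); each panel starts at 0. Etfb and Acaa1a in all 3 obesity-prone libraries lie below every control library, and control library 4 stands with the high-fat diet libraries for Cpt1a and Acot2.

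Set against the same control libraries, the obesity-resistant ones address what differs under that diet in mice that resist obesity. Of the 33 members 0 were called, against 28 of 19676 genes (0.142%; 0.0966% higher and 0.0457% lower), and 2 members had an unadjusted p under 0.05 (Acot2 and Acaa1a), against 3540 of all genes (18%). The median log2 fold change was 0.04 over mitochondrial members, with 11 of 20 above 0, and -0.15 over peroxisomal members, with 10 of 11 below 0, against -0.0061 over all genes tested. The groups did not overlap for 7 members, against 20.2% of genes over the table (10.5% higher and 9.71% lower): Etfa and Hadhb lay above the control libraries, and Acsl1, Etfb, Etfdh, Hadh (the hydroxyacyl-CoA dehydrogenase) and Acaa2 below them.

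Acot2 had 194.6, 362.2 and 309.8 CPM in obesity-resistant libraries and 102.0, 154.1, 116.5 and 265.1 CPM in control libraries. All 3 high-fat values exceeded control libraries 1 to 3, and control library 4 lay between them (log2 fold change 0.86 ± 0.36, SE, edgeR, adjusted p = 0.247). Cpt1a had 58.6, 70.6 and 61.0 CPM in obesity-resistant libraries, against the control values given above, of which only that of library 4 was as high. Its log2 fold change was 0.80 ± 0.37 (SE, edgeR, adjusted p = 0.289) and, without control library 4, 1.35 (edgeR, adjusted p = 0.00751).

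Same-numbered obesity-resistant and control libraries deviated together, though libraries of different numbers were not compared. With the replicate number as a block Cpt1a rose (log2 fold change 1.36 ± 0.18, SE, edgeR, adjusted p = 0.0259), the only member among 382 genes called. In that fit control library 4, which has no same-numbered partner, does not enter the difference. The blocked count of genes was 1.94% of those tested. With the block and only these 2 groups, a fit chosen after the data were seen, 7 members were called, against 1645 of 19103 genes (8.61%). Acot2 and Cpt1a were higher, with log2 fold changes of 1.19 and 1.37, and Acadm, Etfb, Eci1, Acaa1a and Crot lower, with log2 fold changes from -0.53 to -0.37 (edgeR, adjusted p from 0.00404 to 0.04795).

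Etfb had 290.8, 296.5 and 286.3 CPM in obesity-resistant libraries, all below the lowest control library at 323.8 CPM, and close to each other. The log2 fold change was -0.36 ± 0.19 (SE, edgeR, adjusted p = 0.358). Hadhb had 1883, 1943 and 2249 CPM in obesity-resistant libraries, all above the highest control library at 1744 CPM, at a log2 fold change of 0.36 ± 0.26 (SE, edgeR, adjusted p = 0.507). Cpt1b had 1376, 1577 and 1588 CPM in obesity-resistant libraries, which overlapped the controls (log2 fold change 0.17 ± 0.22, SE, edgeR, adjusted p = 0.739).

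Among peroxisomal genes Acaa1a had 32.3, 36.4 and 36.1 CPM in obesity-resistant libraries and 34.8 to 52.8 CPM in control libraries, touching only through control library 4 (log2 fold change -0.33 ± 0.14, SE, edgeR, adjusted p = 0.255). Crot, which attaches carnitine to shortened chains for their export, had 23.3, 27.7 and 30.7 CPM in obesity-resistant libraries, against 42.1, 35.8, 39.5 and 24.1 CPM in control libraries. Here too control library 4 alone overlapped (log2 fold change -0.38 ± 0.18, SE, edgeR, adjusted p = 0.3045). Abcd2 had 36.6, 42.7 and 68.3 CPM in obesity-resistant libraries and 115.3, 65.6, 75.2 and 46.4 CPM in control libraries, with wide overlap (log2 fold change -0.62 ± 0.36, SE, edgeR, adjusted p = 0.40).

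**Figure D4:**
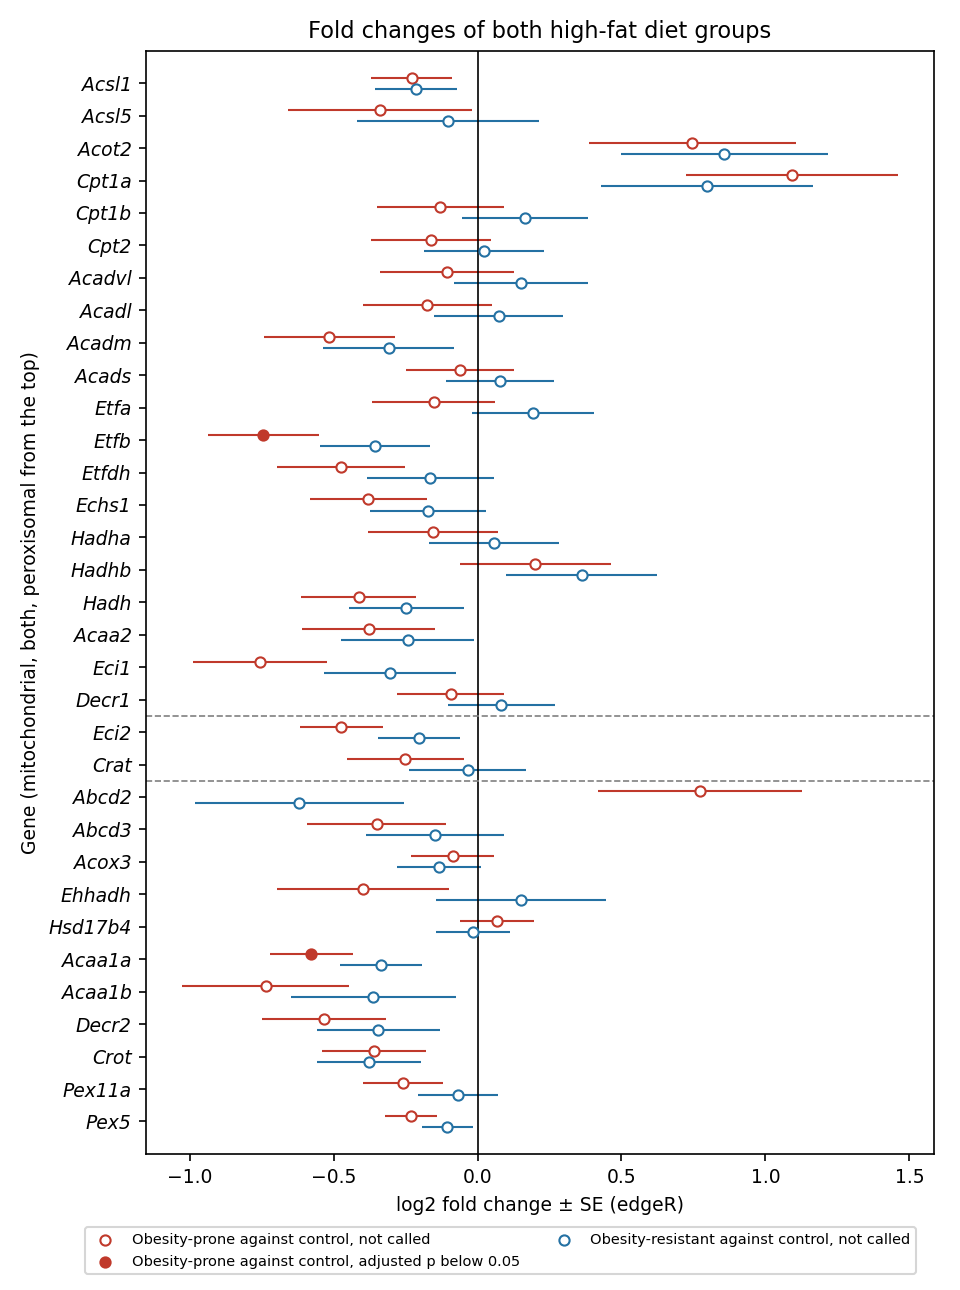
log2 fold change with its SE (x axis) of each of the 33 genes (y axis) in obesity-prone and obesity-resistant libraries, each against the same 4 control libraries. Filled points mark the 2 genes called, Etfb and Acaa1a in obesity-prone libraries and the fold changes of Cpt1a and Acot2 lie between 0.75 and 1.09 in both groups.

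The comparison of the high-fat diet groups asked where prone and resistant mice differ on the same food. Of the 33 members 0 were called, and of all 19676 genes 0 as well (0%; 3030 genes at an unadjusted p under 0.05 in edgeR, and 544 genes, 3.11%, called by DESeq2). The median log2 fold change was -0.21 over mitochondrial members, 19 of 20 of them below 0, and -0.19 over peroxisomal members, against -0.0075 over all genes tested; without obesity-prone library 3 these medians were 0.05 and 0.06. The groups did not overlap for Abcd2, higher in obesity-prone libraries, and for Etfb and Pex11a, lower there, against 19.7% of genes over the table (9.99% higher and 9.75% lower). In this comparison all 8 macrophage markers lay above 0 (median log2 fold change 1.46), 6 of them without overlap, and all 12 skeletal muscle markers lay below 0 (median -3.24), with overlap; their part was not tested.

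Abcd2 (gene 26874, chromosome 15, 91145871 to 91192007) had the lowest p of the set, with 110.5, 83.3 and 193.4 CPM in obesity-prone libraries, against 36.6, 42.7 and 68.3 CPM in obesity-resistant libraries. Every obesity-prone value lay above every obesity-resistant value, and the control libraries, at 46.4 to 115.3 CPM, spanned the gap. The log2 fold change was 1.39 ± 0.39 (SE, unadjusted p = 0.00502, adjusted p = 0.23 in edgeR; 1.38, adjusted p = 0.01645 in DESeq2), and without obesity-prone library 3 it was 0.98. Ehhadh had 224.9, 222.6 and 102.8 CPM in obesity-prone libraries and 169.3, 308.7 and 327.6 CPM in obesity-resistant libraries, with obesity-resistant library 1 inside the obesity-prone range (log2 fold change -0.55 ± 0.32, SE, edgeR, adjusted p = 0.426).

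Etfb lay lower in all 3 obesity-prone libraries (256.4, 267.7 and 142.8 CPM) than in any obesity-resistant library (290.8, 296.5 and 286.3 CPM), at a log2 fold change of -0.39 ± 0.20 (SE, edgeR, adjusted p = 0.381). Etfa had 496.7, 514.8 and 247.0 CPM in obesity-prone libraries and 549.1, 509.6 and 540.2 CPM in obesity-resistant libraries, which overlapped (log2 fold change -0.35 ± 0.23, SE, edgeR, adjusted p = 0.48). Eci1 had 230.5, 263.4 and 115.7 CPM in obesity-prone libraries and 256.6, 305.2 and 272.1 CPM in obesity-resistant libraries, also overlapping (log2 fold change -0.45 ± 0.25, SE, edgeR, adjusted p = 0.397). The 95% interval of the log2 fold change ran from -0.64 to 1.23 for Cpt1a and from -0.85 to 0.26 for Cpt1b, so that differences in either direction lie within the error.

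Cpt1a and Cpt1b code for the isoforms of the enzyme that commits fatty acids to mitochondria, and their levels can be set side by side per length. Since 80.4% of the 50-base words of Cpt1b also lie in Gm44502, its FPKM and thus the share are uncertain. The part of this overlap was not tested. Cpt1a made up 3.83%, 2.89% and 7.47% of their summed FPKM in obesity-prone libraries, 2.87%, 2.95% and 2.55% in obesity-resistant libraries, and 1.26%, 1.45%, 1.12% and 3.49% in control libraries. Control libraries 1 to 3 lay below all 6 high-fat diet libraries, and control library 4 lay among them; the highest share, in obesity-prone library 3, came with the lowest Cpt1b of the 10 libraries. The share differed by 2.90 percentage points between obesity-prone and control libraries (exact permutation test, two-sided p = 0.114, smallest possible 0.0571), by 0.96 points between obesity-resistant and control libraries (exact p = 0.229, smallest possible 0.0571) and by 1.94 points between obesity-prone and obesity-resistant libraries (exact p = 0.20, smallest possible 0.10). All 3 adjusted p-values were 0.229 by the Benjamini-Hochberg method over the 3 exact tests, and none of these designs could reach 0.05.

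The members called differed between fits, in number and in name. In obesity-prone against control libraries, Hadhb rose and Etfb fell without obesity-prone library 3, where 2.67% of genes were called, so that the count of members stayed at 2 while that of genes fell. Without control library 4, Acot2 and Cpt1a rose and Etfb, Eci2, Acaa1a, Acaa1b and Crot fell, where 15.6% of genes were called. With the replicate number as a block Cpt1a rose and Etfb, Acaa1a and Acaa1b fell, with 8.04% of genes called, and in DESeq2 Cpt1a rose and Etfb, Eci1, Eci2 and Acaa1a fell, with 16.2% of genes called. The fits that ended both calls were those with only these groups (0.344% of genes called), with a skeletal muscle score as covariate (3.14%), and in limma on log2 FPKM with a pseudocount of 0.5 (5.21%, and 0.857% without a filter) or 1 (4.92%). In limma with a pseudocount of 0.1, Acaa1a fell and Etfb was not called (5.46% of genes called). In obesity-resistant against control libraries, 0 members were called without obesity-prone library 3 (1.46% of genes called) and by DESeq2 (5.78%), and Cpt1a alone rose without control library 4 (4.42%).

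The comparisons were also fitted without obesity-prone library 3 and control library 4, on 2 obesity-prone, 3 obesity-resistant and 3 control libraries. Both libraries were singled out from these data, obesity-prone library 3 by its low members and control library 4 in part by its Cpt1a share. Members called without 1 or both of them, Cpt1a included, are thus a description and no independent support for a difference. In obesity-prone against control libraries 9 members were then called, against 2635 of 19867 genes (13.3%). Acot2, Cpt1a and Hadhb were higher, with log2 fold changes of 1.36, 1.58 and 0.48 (edgeR, adjusted p from 0.00243 to 0.0272). Etfb, Eci1, Eci2, Acaa1a, Acaa1b and Decr2 were lower, with log2 fold changes from -0.78 to -0.36 (edgeR, adjusted p from 0.00376 to 0.045). In obesity-resistant against control libraries 8 members were called, against 2212 genes (11.1%). Acot2 and Cpt1a were higher, with log2 fold changes of 1.23 and 1.36, and Acadm, Etfb, Eci1, Acaa1a, Decr2 and Crot lower, with log2 fold changes from -0.51 to -0.36 (edgeR, adjusted p from 0.00375 to 0.0347 over these 8). In obesity-prone against obesity-resistant libraries 0 members and 0 genes were called by edgeR in this fit. Both high-fat diet groups are set against the same control libraries, so their fold changes are not independent of each other.

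Ratios of partner genes within a library do not depend on the scaling of that library. They were chosen after the values had been seen and are given without a test. The ratio of Etfb to Etfa FPKM was 0.86, 0.87 and 0.98 in obesity-prone libraries, 0.89, 0.99 and 0.89 in obesity-resistant libraries, and 1.54, 1.31, 1.34 and 1.21 in control libraries. All 6 high-fat diet libraries, obesity-prone library 3 included, lay below all 4 control libraries. For the trifunctional protein, the ratio of Hadhb to Hadha FPKM was 2.27, 2.41 and 1.98 in obesity-prone libraries, 2.21, 2.06 and 2.29 in obesity-resistant libraries, and 1.61, 1.76, 1.85 and 1.79 in control libraries. Here all 6 high-fat diet libraries lay above all 4 control libraries. The other 3 partner ratios computed overlapped between the diets. The ratio of Eci1 to Eci2 FPKM was 2.98 to 4.50 in obesity-prone, 4.03 to 4.71 in obesity-resistant and 4.63 to 4.84 in control libraries. That of Acaa1b to Acaa1a was 0.39 to 0.44 in obesity-prone, 0.43 to 0.50 in obesity-resistant and 0.31 to 0.65 in control libraries. That of Abcd2 to Abcd3 was 0.17 to 0.85 in obesity-prone, 0.08 to 0.13 in obesity-resistant and 0.09 to 0.24 in control libraries. The words that Etfb and Hadhb share with other loci could enter these ratios, and their part was not tested.

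**Figure D5:**
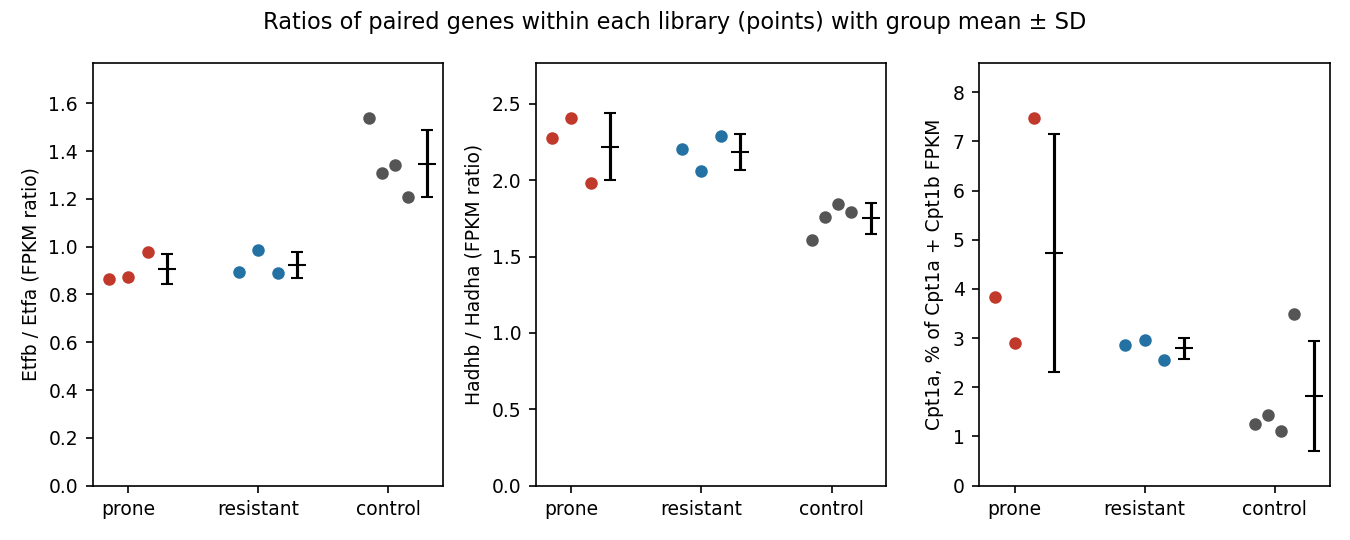
Ratio of Etfb to Etfa FPKM, ratio of Hadhb to Hadha FPKM, and Cpt1a as a percentage of summed Cpt1a and Cpt1b FPKM (y axes, from 0) in each library (points), with the group mean and SD (n = 3, 3 and 4). For both ratios every high-fat diet library is separate from every control library; for Cpt1a control library 4, at 3.49%, overlaps with them.

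Over the whole set, all 6 high-fat diet libraries lay below all 4 control libraries in CPM for Acsl1, Etfb, Etfdh and Hadh, 4 of 20 mitochondrial members, and above them for 0 members, against 4.12% of all genes below and 3.98% above. No peroxisomal member separated.

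Other genes of the pathway, from lists written for this work, were tested in the same fit, in which 3.71% of all genes rose and 3.29% fell in obesity-prone against control libraries, at a median log2 fold change of 0.0047. Of 32 further fatty acid oxidation genes tested (33 listed), 4 fell and 0 rose in obesity-prone against control libraries, with a median log2 fold change of -0.31. Slc27a1, a fatty acid transporter, had 154.5, 121.5 and 161.9 CPM in obesity-prone libraries, against 312.5, 268.1, 264.5 and 214.9 CPM in control libraries, with no overlap (log2 fold change -0.86 ± 0.19, SE, edgeR, adjusted p = 0.0307). Pecr, a peroxisomal enoyl-CoA reductase, had 4.31, 4.76 and 3.03 CPM in obesity-prone libraries, against 11.3, 11.5, 15.2 and 5.03 CPM in control libraries (log2 fold change -1.41 ± 0.32, SE, edgeR, adjusted p = 0.0316). Eci3, an isomerase related to Eci2, and Fabp4, the fatty acid binding protein of adipocytes, fell with log2 fold changes of -1.96 and -0.52 (edgeR, adjusted p = 0.0459 and 0.0471).

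Of 22 regulators of fatty acid oxidation, 3 fell and 0 rose in the same comparison, beside those shares of all genes, with a median log2 fold change of -0.13. Rxrg, a partner of the PPARs, had 25.4, 24.96 and 17.2 CPM in obesity-prone libraries, against 32.7, 40.8, 36.4 and 37.5 CPM in control libraries (log2 fold change -0.71 ± 0.14, SE, edgeR, adjusted p = 0.0242). Acaca, an acetyl-CoA carboxylase, had 346.0, 449.9 and 324.9 CPM in obesity-prone libraries, against 1915, 746.8, 2217 and 485.4 CPM in control libraries. The control values differed widely among themselves, and the log2 fold change was -1.84 ± 0.47 (SE, edgeR, adjusted p = 0.0462). Acacb, the other acetyl-CoA carboxylase of the list, overlapped and was not called. It had 814.6 to 2075 CPM in obesity-prone and 1279 to 1888 CPM in control libraries. Prkaa1, a catalytic subunit of the AMP-activated kinase, fell with a log2 fold change of -0.44 ± 0.09 (SE, edgeR, adjusted p = 0.0234). Ppara, the receptor that drives many genes of the pathway, had 530.6 to 1011 CPM in obesity-prone, 768.5 to 1075 CPM in obesity-resistant and 625.6 to 810.6 CPM in control libraries. Its coactivator Ppargc1a had 114.7 to 236.7 CPM in obesity-prone, 234.9 to 367.8 CPM in obesity-resistant and 129.5 to 324.1 CPM in control libraries. Ppara, Ppargc1a and Ucp1 were called in none of the 3 comparisons (edgeR, adjusted p from 0.323 to 0.923).

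Of 21 genes of peroxisome biogenesis and matrix, 3 fell and 0 rose, again beside 3.29% and 3.71% of all genes, with a median log2 fold change of -0.32. Pxmp2, a channel protein of the peroxisomal membrane, had 1.73, 1.44 and 1.82 CPM in obesity-prone libraries, against 19.6, 11.6, 15.4 and 4.18 CPM in control libraries, with no overlap (log2 fold change -2.93 ± 0.44, SE, edgeR, adjusted p = 0.0133). Pex16, needed to form peroxisomal membranes, and Gnpat, which starts ether lipid synthesis, fell with log2 fold changes of -0.59 ± 0.11 and -0.66 ± 0.15 (SE, edgeR, adjusted p = 0.0234 and 0.0341). Of these 10 genes Pxmp2 kept its call in all 10 fits that each left out 1 library, Rxrg in 8, Prkaa1 in 7, Pex16 in 6, Slc27a1 in 3, Pecr, Fabp4 and Gnpat in 2, and Eci3 and Acaca in 1; the highest adjusted p in those edgeR fits was 0.142. In obesity-resistant against control libraries and between the high-fat diet groups, 0 genes of the 3 lists were called by edgeR; in the comparison with control libraries 9, 5 and 5 of their members had an unadjusted p under 0.05, against 18% of all genes, and between the high-fat diet groups 6, 5 and 2, against 15.4% of all genes.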

How the data were processed

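RNA sequencing of brown adipose tissue was deposited as 1 table of 32889 genes by 10 libraries with expected counts and FPKM. Per the labels' protocols, the authors aligned filtered reads to a transcript set, coding and noncoding, using Bowtie2 2.2.5, and RSEM 1.2.12 gave the expected counts; HISAT2 2.0.4 and GRCm38.p6 are named in the submitters' processing notes. The deposited FPKM follow the count totals within 0.0955%. Of the deposited expected counts 30.4% were not whole, and all were rounded. Columns of the authors' means (6) were not used. Of the genes 7872 carry no name; 1 unnamed gene took 16.1% to 21.2% of the counts. Strand and annotation release are not given in the sources used here.

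Counts were scaled by TMM and tested with edgeR 4.0.16 (R 4.3.3), robust quasi-likelihood, 1 coefficient per group over all 10 libraries (7 residual degrees of freedom), after filterByExpr at a minimum count of 10, with Benjamini-Hochberg adjustment over 19676 genes. The test was tested on simulated counts. The Cpt1a share was tested by exact permutation. Alternatives were DESeq2 1.42.0, limma 3.58.1 on log2 FPKM, other scalings, filters and sample sets, and the replicate number as a block. Same-numbered obesity-resistant and control libraries deviated together over genes (correlations 0.149, 0.121 and 0.188), so the number was also fitted as a block. This rests on the data, not on a stated batch. Libraries of different numbers were not compared, so a pairing by number is not shown. Between replicates, chi-square per degree of freedom was 22.8 to 179, and each library was counted as its own sample. These values cannot tell separate animals from separate preparations of the same animal.

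The 33 genes and the other lists were chosen with earlier results of these data known. Values in every library are given for members called in any comparison, the 3 mitochondrial and 3 peroxisomal members of lowest p in each comparison, Cpt1a and Cpt1b; other genes given in full were chosen after their values were seen. Of the other lists, called genes, Ppara, Ppargc1a and Ucp1 are named. Acacb and single cell type markers were named after their values had been seen. Promoters come from RefSeq.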

Additional observations from a re-analysis of the deposited data

Results flagged for a closer look

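Control library 4 was far from the other 3 control libraries in 3 of the 66 quantities examined for such a gap, about 1 in 20. The rule could flag any control library, and all 3 flags fell on library 4. The quantities are not independent, and the Cpt1a share is counted on both scales, so this count cannot be read against chance. Cpt1a made up 3.49% of summed Cpt1a and Cpt1b FPKM there, against 1.12% to 1.45% in control libraries 1 to 3, and 4.96% on the CPM scale, against 1.56% to 2.04%. Its summed erythrocyte marker CPM was 6150, against 820.5 to 1220 in control libraries 1 to 3.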

How the results depend on the processing

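The counts of genes and of members called did not always move together. In obesity-prone against control libraries, 1377 genes and 2 members were called; other scalings and count filters kept 2 members and 932 to 1553 genes. With only these groups in the fit the counts were 66 genes and 0 members, with a skeletal muscle score as covariate 618 and 0, in limma without a filter 281 and 0, in DESeq2 3030 and 5, and without obesity-prone library 3 and control library 4 2635 and 9. In limma on log2 FPKM, 0 members and 1026 and 969 genes were called at pseudocounts of 0.5 and 1, and 1 member and 1074 genes at 0.1. In obesity-resistant against control libraries, 28 genes and 0 members were called; the genes were 76 without a filter, 68 with the stricter filter, 391 with only these groups, 60 with the muscle covariate, 8 in limma without a filter, 1084 in DESeq2, all with 0 members, and 2212 (8 members) without both libraries. Between the high-fat diet groups, DESeq2 called 544 genes and 1 member, Abcd2, against 0 and 0 in edgeR.

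With 1 library left out at a time, obesity-prone against control gave 76 to 3040 genes and 0 to 7 members, obesity-resistant against control 3 to 864 genes and 0 to 1 members, and the high-fat diet groups 0 to 871 genes and 0 members. The difference in Cpt1a share ranged from 1.53 to 3.83, 0.724 to 1.52 and 0.572 to 2.86 percentage points. The log2 fold change of Hadhb in obesity-prone against control libraries ranged from -0.024 (without obesity-prone library 2) to 0.51, and that of Cpt1b from -0.30 to 0.13 (without library 3), and was 0.15 without that library and control library 4; the cause was not tested.

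With the replicate block, obesity-prone against control gave 1582 genes and 4 members (Cpt1a higher; Etfb, Acaa1a and Acaa1b lower), and obesity-resistant against control 382 genes and 1 member. With the block and only these groups, a fit chosen after seeing the data, obesity-resistant against control gave 1645 genes and 7 members. Same-numbered obesity-prone and control libraries had correlations of -0.086, -0.104 and -0.147. Those of obesity-prone and obesity-resistant libraries were -0.108, -0.065 and 0.206. Libraries of different numbers were not compared. With 3 or 4 libraries a group, differences could be missed, and a gene that was not called is not shown to be unchanged.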
